A study of Mus musculus with 32 samples.

Results

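Lipid-associated macrophage genes were followed in 10 members, Trem2, Tyrobp, Gpnmb, Spp1, Cd9, Lgals3, Ctsk, Atp6v0d2, Dcstamp and Cpe, matched by symbol among the 24421 genes of the count tables. The members were chosen by their measured levels in the groups described here, with earlier results of these data in view. Their levels and differences are therefore a description, with no test, and support nothing by themselves. All 10 passed the filter on low counts, which kept 13453 genes.

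The macrophages came from epididymal fat of the strain C57BL/6J, were sorted by flow cytometry, and had their RNA sequenced in bulk. The mice were wild type (WT) or carried a myeloid-specific knockout of A20 (KO, A20myel-KO), the ubiquitin-editing enzyme encoded by Tnfaip3 that restrains NF-kB signalling. For 12 weeks they ate either a standard diet (SD) or one high in fat (HFD). The gate called CD11c+ took cells with much CD11c and little CD206, and the gate called CD206+ the reverse. Genotype, diet and population gave 8 groups of 4 libraries, 32 in all. The labels give neither the driver of the myeloid deletion nor the age of the mice, nor do they say whether replicate libraries stem from different animals. P-values therefore measure only the spread between these samples, which may be technical.

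Lipid-associated macrophages gather around dying adipocytes in obese fat, where they take up and digest lipid. TREM2 is a lipid-sensing receptor at their surface that signals through the adaptor TYROBP. The state shares several genes with the osteoclast, the bone-resorbing relative of the macrophage, among them the protease Ctsk, the proton pump subunit Atp6v0d2 and the fusion protein Dcstamp.

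The promoters of 6 members were found in the RefSeq table of GRCm38.p6, 7 promoters in all because Spp1 has 2. None was found there for Tyrobp, Atp6v0d2, Dcstamp or Cpe. The 250 bases before the start are printed for 4 members, on the strand of the gene, because these 4 differed most between the groups among those with a promoter in the table and no antisense neighbour. Capitals mark GAGGAA or its reverse complement TTCCTC, letters of the core bound by the myeloid factor PU.1.
Trem2, chr17:48346151-48346400, + strand: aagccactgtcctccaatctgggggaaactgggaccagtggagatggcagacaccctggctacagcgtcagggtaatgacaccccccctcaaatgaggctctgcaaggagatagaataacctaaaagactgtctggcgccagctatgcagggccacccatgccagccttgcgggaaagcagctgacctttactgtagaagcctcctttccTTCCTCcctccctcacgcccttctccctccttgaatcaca
Gpnmb, chr6:49036268-49036517, + strand: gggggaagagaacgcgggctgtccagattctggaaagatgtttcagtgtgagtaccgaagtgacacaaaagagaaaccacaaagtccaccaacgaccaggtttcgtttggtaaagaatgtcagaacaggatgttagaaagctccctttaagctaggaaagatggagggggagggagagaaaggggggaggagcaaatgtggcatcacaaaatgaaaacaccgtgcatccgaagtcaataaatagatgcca
Spp1, chr5:104434861-104435110, + strand, the first of its 2 promoters: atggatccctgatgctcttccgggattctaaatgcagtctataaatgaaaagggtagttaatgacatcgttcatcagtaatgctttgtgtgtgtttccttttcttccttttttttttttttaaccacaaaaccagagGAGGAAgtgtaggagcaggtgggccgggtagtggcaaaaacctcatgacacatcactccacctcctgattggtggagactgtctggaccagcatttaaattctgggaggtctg
Ctsk, chr3:95498960-95499209, + strand: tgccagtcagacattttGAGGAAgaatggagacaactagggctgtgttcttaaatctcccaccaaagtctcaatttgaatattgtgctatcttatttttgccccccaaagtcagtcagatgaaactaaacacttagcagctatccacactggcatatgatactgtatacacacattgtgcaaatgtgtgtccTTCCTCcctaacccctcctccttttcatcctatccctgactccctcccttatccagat

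A total of 4 motifs was searched on both strands of the 7 promoters, and no match overlapped another. GAGGAA was found once in Trem2, first base 40 before the start, once in the first Spp1 promoter, 113 before the start, and at 2 places in Ctsk, 233 and 58 before the start. It is a short motif, held by 23.3% of the 32851 promoters of this length. CACGTG and TCATGTG, letters read by the MiT/TFE factors of lysosomal genes, had no match in the 7 promoters. Of all promoters, 6.02% and 3.25% held them. TGACTCA, letters read by AP-1, had no match either and was held by 4.46% of all promoters. It was narrowed from a form with an open middle base after matches had been seen. Its lack of a match is therefore no finding. With shares this low, a lack of matches in 7 promoters cannot be read as a depletion. A match describes letters and is neither a site in use nor a cause.

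Total gene counts per library ran from 17.6 × 1e6 to 23.8 × 1e6 reads. Levels below are in CPM, reads of a gene per 1e6 reads of the library, scaled by the trimmed mean of M values (TMM). Tnfaip3 lay between 167 and 474 CPM in the 16 KO libraries and between 486 and 1647 CPM in the 16 WT libraries. Itgax, which encodes CD11c, had CD11c+ group means of 196 to 320.3 CPM and CD206+ group means of 3.41 to 34.4 CPM. For Mrc1, which encodes CD206, they were 453 to 633 CPM and 1458 to 1893 CPM. The 12 macrophage markers were detected in every group and summed to between 25008 and 39346 CPM in a library. Markers of other cells were present beside them. The sum of 14 stromal and mesothelial markers was 1199 to 1685 CPM in WT HFD CD11c+ cells, 1143 to 3005 CPM in WT HFD CD206+ cells and 618 to 1495 CPM elsewhere. No stromal marker was at 0 throughout a group.

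Trem2 (chromosome 17, 48346401 to 48354147 of GRCm38) was highest in WT HFD cells of both populations. The CD11c+ libraries of WT HFD mice held 789, 660.1, 667 and 598 CPM (679 ± 79.8 CPM, SD, n = 4 here and below). The CD206+ libraries of the same group held 349, 329, 304 and 319 CPM (325 ± 18.9). No other library reached these values: the highest of the remaining 24 stood at 131 CPM. On SD, WT CD11c+ cells held 34.6, 54.7, 63.6 and 95.9 CPM and WT CD206+ cells 79.8, 70.4, 66.3 and 86.0 CPM. KO HFD CD11c+ cells held 49.2, 122, 131 and 107 CPM, and KO HFD CD206+ cells 58.9, 54.6, 44.7 and 62.9 CPM. In KO SD mice the levels were 51.7, 68.2, 48.6 and 77.4 CPM in CD11c+ and 39.0, 47.1, 30.4 and 48.9 CPM in CD206+ cells. From the third group of the order, KO HFD CD11c+, down to the lowest, KO SD CD206+, each group overlapped the next.

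Tyrobp (chromosome 7, 30413760 to 30417585), the adaptor through which TREM2 signals, stayed in a narrow range. Its group means ran from 487 ± 80.2 CPM in WT SD CD206+ cells to 915 ± 134 CPM in WT SD CD11c+ cells, a ratio of 1.88. The 4 CD11c+ groups overlapped one another in order and lay above the 4 CD206+ groups, whose libraries also overlapped in order. On HFD the CD11c+ mean was 795 ± 46.4 CPM in WT and 761 ± 61.4 CPM in KO cells, and the CD206+ mean was 590.1 ± 20.3 and 579 ± 44.9 CPM.

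**Figure D1:**
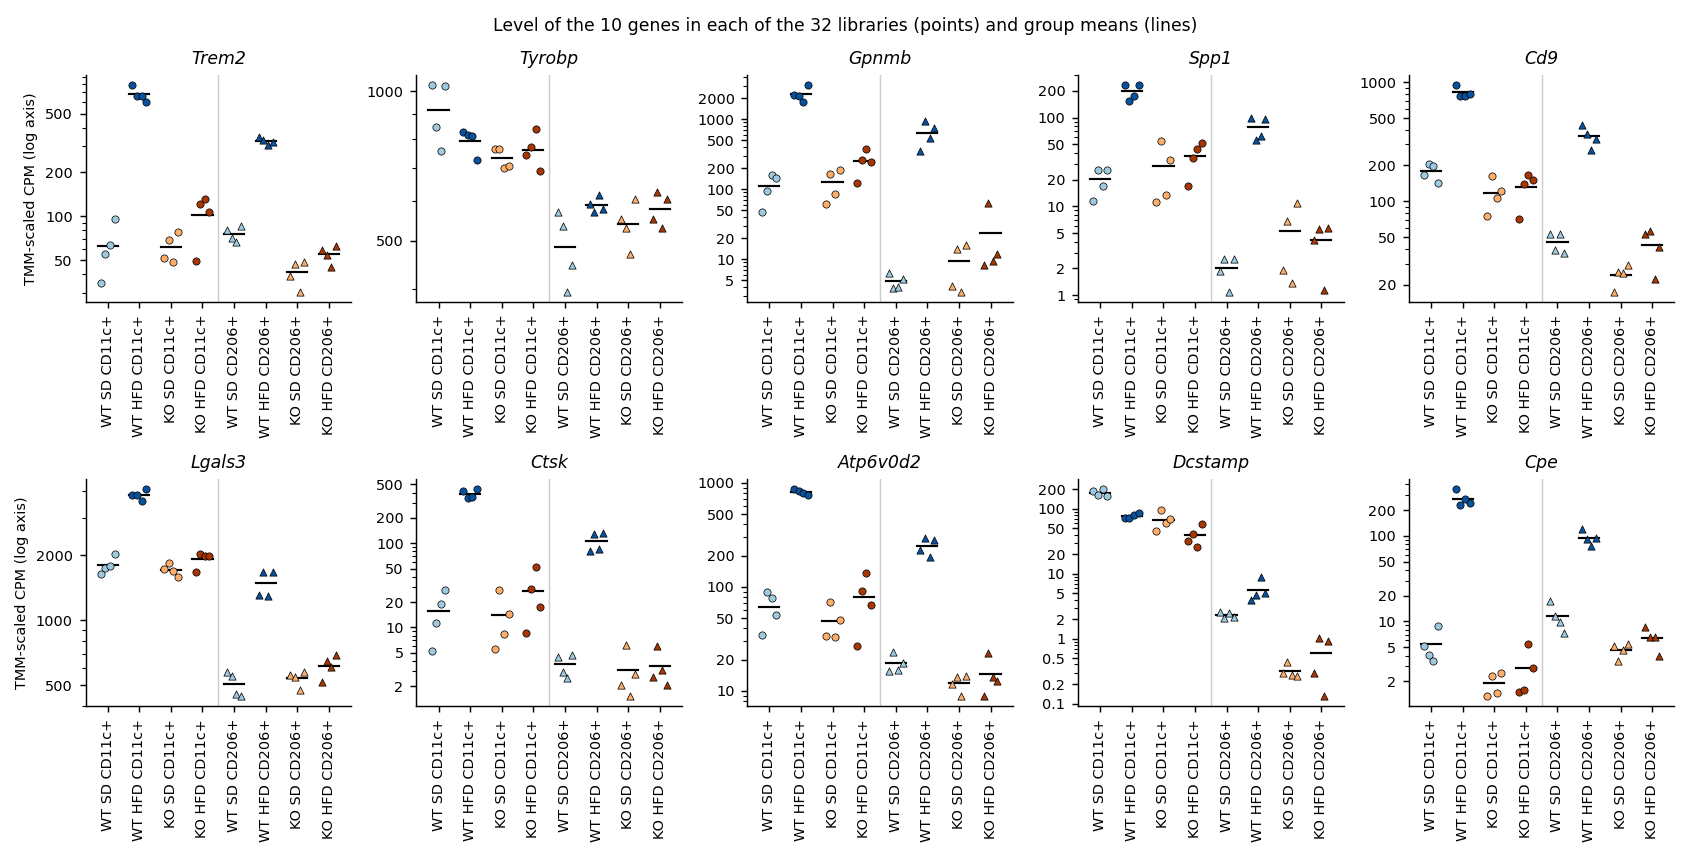
Level of each of the 10 genes (TMM-scaled CPM, log axis) in the 8 groups of 4 libraries. Each point is 1 library (circles CD11c+, triangles CD206+) and lines are group means; Trem2, Spp1, Cd9, Ctsk, Atp6v0d2 and Cpe were higher in all 8 WT HFD libraries than in the other 24, whereas Tyrobp stayed within a ratio of 1.88 between group means and Dcstamp was highest in WT SD CD11c+ cells.

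Gpnmb (chromosome 6, 49036546 to 49070929), a membrane glycoprotein of lysosome-rich macrophages, had a span of 478 between its lowest and highest group means. WT HFD CD11c+ cells held 2245, 2123, 1778 and 3101 CPM (2312 ± 562) and WT HFD CD206+ cells 347, 932, 536 and 739 CPM (638 ± 253). KO HFD CD11c+ cells held 123, 258, 379.9 and 242 CPM (251 ± 105), so that the highest of them passed the lowest WT HFD CD206+ library. KO HFD CD206+ cells held 8.35, 63.5, 9.44 and 11.9 CPM, where replicate 2 stood apart from the other three. On SD the levels were 47.9, 94.1, 162 and 143 CPM in WT CD11c+ cells and 6.27, 3.84, 4.05 and 5.18 CPM in WT CD206+ cells. KO SD mice had 62.1, 165, 86.3 and 188 CPM in CD11c+ and 4.17, 14.1, 3.43 and 16.2 CPM in CD206+ cells. Below the 2 WT HFD groups, each group overlapped the next in order. The overlap of WT SD CD11c+ with KO HFD CD206+ cells rested on replicate 2 of the latter alone.

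Spp1 (chromosome 5, 104435118 to 104441050), which encodes the secreted glycoprotein osteopontin, averaged 199 ± 39.6 CPM in WT HFD CD11c+ cells and 78.3 ± 22.6 CPM in WT HFD CD206+ cells. The lowest of these 8 libraries held 55.5 CPM and the highest of the other 24 held 55.1 CPM, so the separation was narrow. CD11c+ cells of the other groups averaged 36.9 ± 15.0 CPM in KO HFD, 28.4 ± 20.5 CPM in KO SD and 20.1 ± 7.10 CPM in WT SD mice, and these 3 overlapped. CD206+ cells averaged 5.27 ± 4.51 CPM in KO SD, 4.15 ± 2.12 CPM in KO HFD and 2.02 ± 0.70 CPM in WT SD mice, and these 3 overlapped as well. The stromal marker sum was highest in the groups where Spp1 was highest; its part in the result was not tested. Gm42793 overlaps Spp1 on the same strand, so reads of the overlap cannot be told apart.

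The tetraspanin Cd9 (chromosome 6, 125460266 to 125494791, minus strand) averaged 819 ± 88.8 CPM in WT HFD CD11c+ and 351 ± 69.1 CPM in WT HFD CD206+ cells, and no library outside these passed 206 CPM. WT SD CD11c+ cells followed with 178 ± 29.2 CPM and overlapped KO HFD CD11c+ cells with 132 ± 42.5 CPM. KO SD CD206+ cells were lowest with 24.3 ± 4.93 CPM. The annotation places the antisense genes Gm28809 and Gm26728 across Cd9, and the strand setting of the counting is not given in the sources used here, so reads of these genes and of Cd9 cannot be told apart. The galectin Lgals3 (chromosome 14, 47367751 to 47386160), a sugar-binding protein of phagocytes, was abundant in every group. It averaged 3814 ± 204 CPM in WT HFD CD11c+ cells and between 1712 and 1922 CPM in the other 3 CD11c+ groups, which overlapped. In CD206+ cells it averaged 1492 ± 215 CPM in WT HFD mice and between 508 and 614 CPM in the other 3 groups, which overlapped.

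Ctsk (chromosome 3, 95499256 to 95509362) encodes the collagen-degrading protease cathepsin K. It averaged 387 ± 47.1 CPM in WT HFD CD11c+ and 107 ± 27.9 CPM in WT HFD CD206+ cells. The other 24 libraries did not pass 52.6 CPM, and the 3 remaining CD206+ groups averaged 3.15 to 3.67 CPM. Atp6v0d2 (chromosome 4, 19876841 to 19922605, minus strand), a membrane-sector subunit of the vacuolar proton pump, had the same order of groups for the first 3 places. It averaged 814 ± 45.3 and 249 ± 47.8 CPM in WT HFD CD11c+ and CD206+ cells and 79.7 ± 45.2 CPM in KO HFD CD11c+ cells. The lowest WT HFD library held 192 CPM and the highest other library 135 CPM.

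Dcstamp (chromosome 15, 39745930 to 39760938), the transmembrane protein needed for fusion of osteoclast precursors, departed from this pattern. Its highest group was WT SD CD11c+ with 187, 164, 201 and 156 CPM (177 ± 20.6). WT HFD CD11c+ cells held 71.9, 71.2, 79.6 and 85.8 CPM (77.1 ± 6.92), all below the WT SD ones. KO SD CD11c+ cells with 46.2, 96.4, 59.5 and 70.7 CPM overlapped both WT HFD and KO HFD CD11c+ cells, the latter with 32.3, 40.8, 25.8 and 59.1 CPM. In CD206+ cells it was scarce. WT HFD mice had 3.89, 4.76, 8.74 and 4.99 CPM and WT SD mice 2.54, 2.08, 2.48 and 2.18 CPM. The KO groups held 0.29, 1.03, 0.13 and 0.91 CPM on HFD and 0.30, 0.44, 0.27 and 0.26 CPM on SD. These were 3 to 20 reads in a library, so that folds of this gene in KO CD206+ cells rest on few reads. The sum of 8 dendritic cell markers was 367 to 625 CPM in WT SD and 45.5 to 111 CPM in WT HFD CD11c+ cells. It was 158 to 288 CPM in KO SD and 110 to 272 CPM in KO HFD CD11c+ cells. In WT SD CD206+ cells, where Dcstamp was scarce, the sum was 290 to 351 CPM. Its part in the Dcstamp levels was not tested.

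Cpe (chromosome 8, 64592542 to 64693054, minus strand), a carboxypeptidase best known for processing prohormones, was low outside WT HFD mice. WT HFD CD11c+ cells held 351, 227, 266 and 241 CPM (271 ± 55.6) and WT HFD CD206+ cells 119.9, 91.0, 75.4 and 94.0 CPM (95.1 ± 18.4). The highest of the other 24 libraries held 17.5 CPM. In those groups CD206+ cells had more than CD11c+ cells: 11.6 ± 4.30 against 5.39 ± 2.38 CPM in WT SD, 6.48 ± 1.93 against 2.84 ± 1.82 CPM in KO HFD and 4.66 ± 0.88 against 1.91 ± 0.58 CPM in KO SD mice. The first of these pairs overlapped between the populations, the second overlapped, and the third did not. The stromal marker sum was likewise higher in WT HFD cells, and the sum of 6 mast cell markers ran from 15.0 to 43.0 CPM in WT HFD CD11c+ and 21.9 to 122 CPM in WT HFD CD206+ cells against 1.03 to 41.3 CPM elsewhere; their part in the result was not tested. In bulk RNA, fewer cells of a type and less RNA per cell cannot be told apart.

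Per kilobase of annotated exon, Lgals3 and Tyrobp were the most abundant members in WT HFD CD11c+ cells, with 2053 ± 110 and 1193 ± 69.5 CPM per kilobase. Cd9 followed with 401 ± 43.5, Gpnmb with 355 ± 86.3, Atp6v0d2 with 299.9 ± 16.7 and Ctsk with 256 ± 31.2 CPM per kilobase. Trem2, Spp1 and Cpe held 137 ± 16.1, 121 ± 24.02 and 104 ± 21.3 CPM per kilobase, within each other's spread for neighbours in that order, and Dcstamp was lowest with 28.9 ± 2.60. In WT SD CD206+ cells Gpnmb was the lowest of the 10, with 0.74 ± 0.17 CPM per kilobase, where Tyrobp stood at 729.6 ± 120.2. The length was the union of all annotated exons of a gene, 4946 bases for Trem2, 6514 for Gpnmb and 667 for Tyrobp. Transcripts in use may be shorter than this union, so the order of the members may differ with another length.

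Loss of A20 on HFD went with lower levels of 9 of the 10 members in each population. In CD11c+ cells the 4 KO libraries lay below the 4 WT libraries for every member but Tyrobp, where 34.7% of all genes tested showed such a lack of overlap in either direction. The log2 fold change of KO against WT was -6.57 ± 0.35 (SE of the edgeR fit) for Cpe, -3.85 ± 0.49 for Ctsk, -3.35 ± 0.35 for Atp6v0d2 and -3.20 ± 0.55 for Gpnmb. It was -2.73 ± 0.25 for Trem2, -2.63 ± 0.26 for Cd9 and -2.43 ± 0.47 for Spp1. Lgals3 and Dcstamp differed least of the 9, with -0.99 ± 0.11 and -0.96 ± 0.23, and Tyrobp stood at -0.06 ± 0.10. The median of the 10 was -2.68, beside -0.02 over all genes.

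In CD206+ cells on HFD, 9 members again lay lower in KO libraries without overlap, against 25.6% of all genes in either direction. Ctsk stood at -4.97 ± 0.55, Gpnmb at -4.78 ± 0.60, Spp1 at -4.25 ± 0.54 and Atp6v0d2 at -4.10 ± 0.37. Cpe, Dcstamp, Cd9 and Trem2 lay between -3.88 and -2.56, Lgals3 at -1.28 ± 0.11 and Tyrobp at -0.03 ± 0.10. The Gpnmb value rests in part on KO HFD CD206+ replicate 2, without which it was -6.01. The median of the 10 was -3.56, beside -0.00 over all genes.

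On SD fewer members were separated by genotype. In CD11c+ cells Dcstamp and Cpe lay lower in KO libraries without overlap (-1.38 ± 0.23 and -1.47 ± 0.36), 2 of 10 members, against 23.4% of all genes. The Dcstamp value was farther from 0 than on HFD, as was that of Tyrobp (-0.32 ± 0.10). The others lay between -0.61 for Cd9 and 0.50 for Spp1, with Ctsk at -0.14, or -0.74 without KO SD CD11c+ replicate 2. The Trem2 value of -0.01 ± 0.23 changed sign when library sizes were used without TMM factors (0.05), and those of Trem2, Gpnmb, Spp1 and Ctsk did so when certain single libraries were left out. In CD206+ cells 5 of 10 lay lower in KO without overlap, against 27.6% of all genes: Dcstamp (-2.84 ± 0.47), Cpe (-1.31 ± 0.31), Cd9 (-0.92 ± 0.25), Trem2 (-0.87 ± 0.24) and Atp6v0d2 (-0.62 ± 0.35). Spp1 stood at 1.37 ± 0.60 and Gpnmb at 0.96 ± 0.60, both with overlap, and without KO SD CD206+ replicate 4 the Spp1 value was 0.77.

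**Figure D2:**
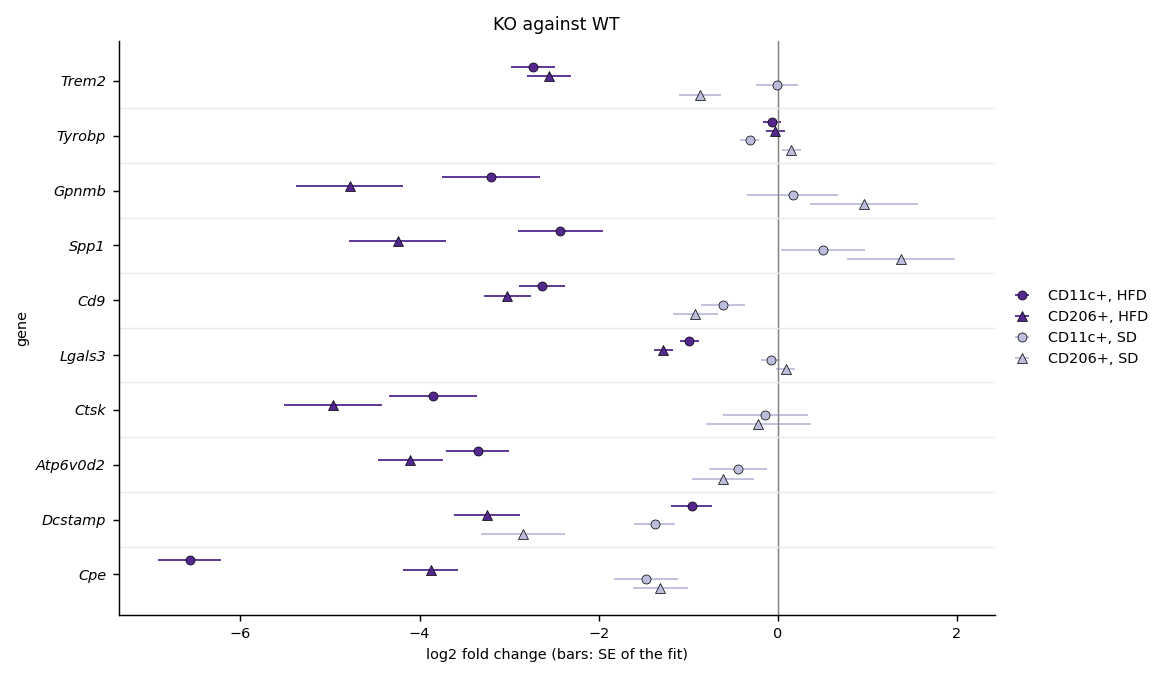
Log2 fold change of KO against WT for the 10 genes (x axis, bars SE of the fit) on HFD (dark) and SD (light) in CD11c+ (circles) and CD206+ cells (triangles). On HFD Tyrobp lies within its SE of 0 (-0.06 and -0.03) and the other 9 genes lie farther left, down to -6.57 for Cpe in CD11c+ cells; on SD the values lie between -2.84 for Dcstamp and 1.37 for Spp1, both in CD206+ cells.

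The diet comparison shares the WT HFD libraries with the comparison of genotypes, so their values are set side by side and are not separate evidence. In WT CD11c+ cells 8 members were higher on HFD without overlap and 1, Dcstamp, was lower, against 40.2% of all genes in either direction. The values of HFD against SD were 5.67 ± 0.33 for Cpe, 4.63 ± 0.51 for Ctsk, 4.37 ± 0.58 for Gpnmb, 3.68 ± 0.35 for Atp6v0d2 and 3.45 ± 0.25 for Trem2. Spp1 stood at 3.31 ± 0.49, Cd9 at 2.20 ± 0.25 and Lgals3 at 1.08 ± 0.11. Dcstamp stood at -1.20 ± 0.23 and Tyrobp, whose libraries overlapped, at -0.20 ± 0.10.

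In WT CD206+ cells all 10 members were higher on HFD without overlap, against 31.4% of all genes in either direction. For Tyrobp this separation was narrow: its lowest HFD library held 570.9 CPM and its highest SD library 570.5 CPM. Gpnmb stood at 7.05 ± 0.68, Spp1 at 5.28 ± 0.59, Ctsk at 4.87 ± 0.55, Atp6v0d2 at 3.76 ± 0.36, Cpe at 3.04 ± 0.29 and Cd9 at 2.93 ± 0.26. Trem2 stood at 2.105 ± 0.24, Lgals3 at 1.55 ± 0.11, Dcstamp at 1.26 ± 0.30 and Tyrobp at 0.28 ± 0.10. Dcstamp thus lay on opposite sides in the 2 populations. Itgax, the gene of the CD11c gate, rose with diet in the same CD206+ libraries, from 3.63 ± 1.98 CPM on SD to 34.4 ± 12.6 CPM on HFD (3.23 ± 0.34, adjusted p = 3.50e-08), and was lower in KO than in WT HFD CD206+ cells; its part in the members' values was not tested.

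In KO cells no member was separated by diet in either population. In CD11c+ cells 0 of 10 were without overlap, where 3.31% of all genes were, and the values ran from -0.79 ± 0.23 for Dcstamp to 1.00 ± 0.51 for Gpnmb, with Trem2 at 0.73 ± 0.23. Ctsk stood at 0.92 ± 0.47, or 1.53 without KO SD CD11c+ replicate 2. In CD206+ cells it was 0 of 10, where 4.30% of all genes were, and the values ran from -0.34 ± 0.55 for Spp1 to 1.30 ± 0.56 for Gpnmb. The Gpnmb value was 0.09 without KO HFD CD206+ replicate 2, and the Spp1 value turned to 0.29 without KO SD CD206+ replicate 4. Without KO HFD CD11c+ replicate 1, 3 members were separated in CD11c+ cells, so the count of 0 rests in part on that library.

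The difference between the diet effects in KO and WT cells was -5.09 ± 0.50 for Cpe, -3.71 ± 0.67 for Ctsk, -3.37 ± 0.74 for Gpnmb and -2.72 ± 0.33 for Trem2 in CD11c+ cells. It was 0.41 ± 0.32 for Dcstamp and 0.25 ± 0.15 for Tyrobp. In CD206+ cells it was -5.74 ± 0.83 for Gpnmb, -5.62 ± 0.80 for Spp1, -4.75 ± 0.79 for Ctsk and -1.69 ± 0.33 for Trem2, with Dcstamp at -0.40 ± 0.69 and Tyrobp at -0.18 ± 0.15. Single libraries moved some of these values by more than 1.5 times on the fold scale, not the log2 scale printed here, without turning them. Without KO SD CD11c+ replicate 2 the CD11c+ values were -3.08 for Ctsk and -2.34 for Spp1 (-2.93 ± 0.66 with it). In CD206+ cells Gpnmb was -6.96 without KO HFD CD206+ replicate 2, and Spp1 was -5.01 without KO SD CD206+ replicate 4. These are descriptions of the same 32 libraries.

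**Figure D3:**
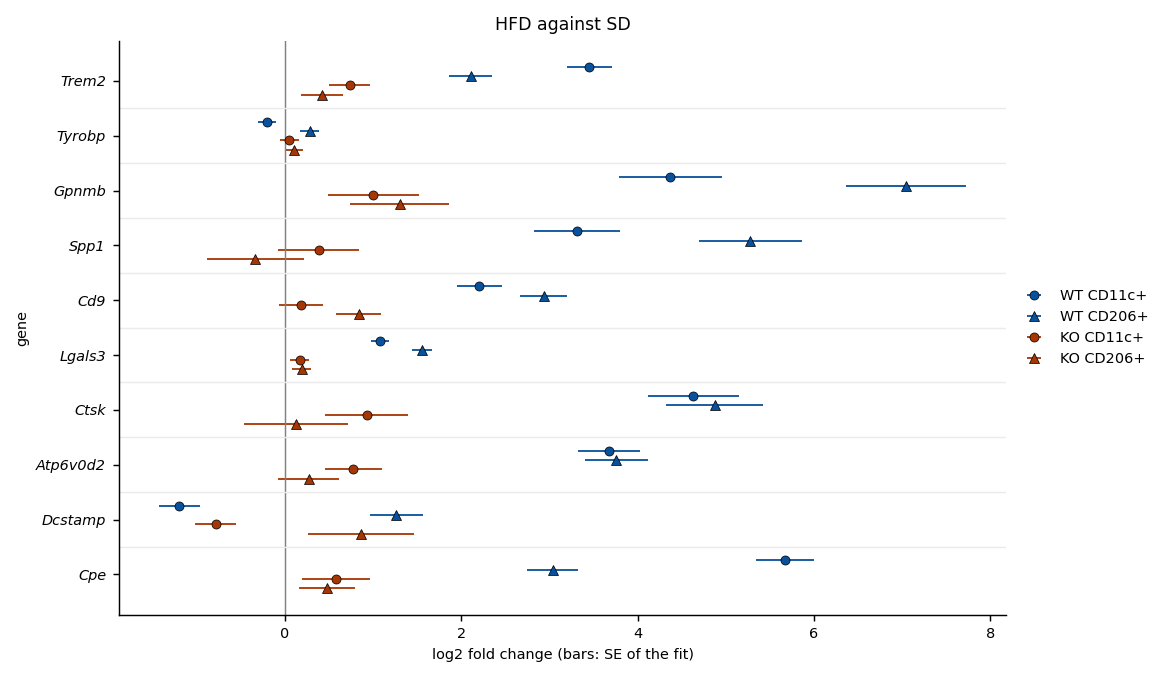
Log2 fold change of HFD against SD for the 10 genes (x axis, bars SE of the fit) in WT (blue) and KO (brown) cells, CD11c+ as circles and CD206+ as triangles. WT values reach 7.05 for Gpnmb in CD206+ cells, and KO values lie between -0.79 and 1.30.

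Most members were higher in CD11c+ than in CD206+ cells of the same genotype and diet. In WT HFD mice this held for 10 of 10 without overlap, against 27.9% of all genes in either direction, with values from 0.43 ± 0.10 for Tyrobp to 3.79 ± 0.27 for Dcstamp. In WT SD mice 8 were higher without overlap, against 54.2% of all genes, among them Dcstamp (6.25 ± 0.30), Gpnmb (4.53 ± 0.62) and Spp1 (3.31 ± 0.57). There Trem2 (-0.28 ± 0.23) and Cpe (-1.12 ± 0.31) leaned the other way, with overlap. In KO HFD mice 8 were higher, against 37.9% of all genes, led by Dcstamp (6.07 ± 0.35), Gpnmb (3.43 ± 0.57; 4.66 without CD206+ replicate 2) and Spp1 (3.16 ± 0.53). In KO SD mice 7 were higher and 1, Cpe, was lower (-1.28 ± 0.36), against 44.4% of all genes, and Dcstamp stood at 7.72 ± 0.38 over CD206+ libraries with 5 to 9 reads each. Cpe was therefore higher in CD11c+ cells on HFD in WT mice (1.51 ± 0.27). In the other 3 pairs of groups it leaned towards CD206+ cells. On HFD its log2 fold change between populations in KO minus that in WT mice was -2.69 ± 0.43. The SE come from a fit that does not pair same-numbered libraries, which deviated together in WT HFD, WT SD and KO SD mice.

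**Figure D4:**
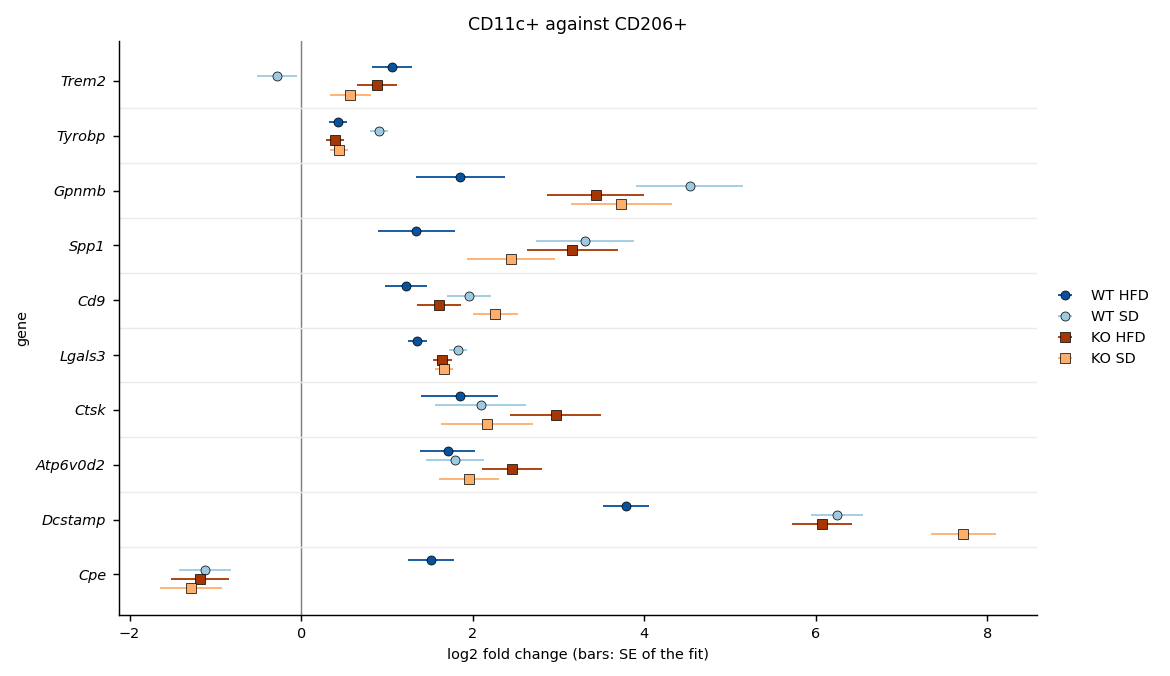
Log2 fold change of CD11c+ against CD206+ cells for the 10 genes (x axis, bars SE of the fit) in WT HFD, WT SD, KO HFD and KO SD mice. Dcstamp lies farthest right in every group, from 3.79 to 7.72, and Cpe lies right of 0 in WT HFD mice and left of 0 in the other 3 groups.

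Genes around the members were tested, 98 of 104 listed genes having passed the filter. They comprise a TREM2 list, further genes described for lipid-associated macrophages, genes shared with osteoclasts, and transcription factors. Also included are partners of osteopontin and the closest relative of each member. The TREM2 list holds relatives and signal transducers of TREM2, and also Adam10, Adam17, Ms4a6d and Siglech. The test was edgeR's quasi-likelihood test with Benjamini-Hochberg adjustment over all 13453 genes, at an adjusted p of 0.05. The lists were chosen with earlier results of these data known. Their counts beside the share of all genes, and the genes named from them, are therefore a description and no independent support.

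For KO against WT on HFD in CD11c+ cells, 23 of the 98 rose and 40 fell, where 38.0% of all genes were called, and their median was -0.20 beside -0.02 over all genes. Among 28 further lipid-associated genes 4 rose and 18 fell (median -0.71). The elastase Mmp12 fell from 1528 ± 600 CPM in WT to 236 ± 107 CPM in KO cells (-2.70 ± 0.53, adjusted p = 1.47e-04), and the interleukin-7 receptor Il7r fell from 97.2 ± 12.1 to 22.4 ± 2.46 CPM (-2.12 ± 0.22, adjusted p = 9.27e-09). Among 22 osteoclast genes 3 rose and 10 fell. The gelatinase Mmp9 was 1 of those that rose, from 6.05 ± 2.58 to 309 ± 113 CPM (5.67 ± 0.44, adjusted p = 4.35e-11). Of 17 genes of the TREM2 list 8 rose and 1 fell. Trem1, the inflammatory relative of TREM2 that uses the same adaptor, rose from 0.98 ± 0.49 to 14.8 ± 7.75 CPM (3.89 ± 0.54, adjusted p = 9.56e-07). Of 20 transcription factors 5 rose and 6 fell, and of 8 osteopontin partners 2 rose and 4 fell.

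In CD206+ cells on HFD 13 of the 98 rose and 34 fell in KO cells, where 21.8% of all genes were called (median -0.13 beside -0.00). The further lipid-associated genes rose in 3 and fell in 14 of 28 cases (median -0.54), the osteoclast genes rose in 3 and fell in 9 of 22. Mmp12 fell from 237 ± 112 to 9.84 ± 10.4 CPM (-4.61 ± 0.59, adjusted p = 6.64e-07), and Itgax from 34.4 ± 12.6 to 3.41 ± 1.23 CPM (-3.34 ± 0.34, adjusted p = 1.34e-08). Mmp9 rose from 20.6 ± 5.30 to 747 ± 267 CPM (5.18 ± 0.42, adjusted p = 2.35e-10) and Trem1 from 2.31 ± 2.01 to 14.6 ± 5.41 CPM (2.66 ± 0.49, adjusted p = 1.20e-04). Of 14 stromal markers on HFD, 9 were lower and 1 higher in KO CD11c+ cells and 8 lower in KO CD206+ cells. Of 8 markers of NK and T cells, 7 and 5 were higher in KO CD11c+ and CD206+ cells on HFD. All 8 dendritic cell markers were higher in KO CD11c+ cells on HFD, and 2 of 8 in KO CD206+ cells. Of 8 adipocyte markers, 3 were higher and 1 lower in KO CD11c+ cells on HFD, and 6 higher in KO CD206+ cells. The part of these markers in the counts of related genes was not tested.

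On SD most called genes lay higher in KO cells. In CD11c+ cells 34 of the 98 rose and 7 fell, where 26.8% of all genes were called. Nr1h3, the oxysterol-sensing nuclear receptor LXR alpha, rose from 18.7 ± 6.28 to 85.1 ± 14.3 CPM (2.19 ± 0.19, adjusted p = 2.68e-10). Mmp9 rose by 3.84 ± 0.40 (adjusted p = 1.33e-08), while the fatty acid binding protein Fabp4 (-1.72 ± 0.33, adjusted p = 1.88e-04) and the AP-1 subunit Fosl2 (-0.92 ± 0.15, adjusted p = 3.75e-05) fell. In CD206+ cells 37 rose and 7 fell, where 24.5% of all genes were called. There the kinase Src rose by 2.83 ± 0.23 (adjusted p = 2.31e-10) and Nr1h3 by 2.1003 ± 0.19 (adjusted p = 1.78e-09), and the lectin Siglech (-2.44 ± 0.41, adjusted p = 3.81e-05) and Fabp4 (-1.56 ± 0.32, adjusted p = 5.62e-04) fell.

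For HFD against SD in WT CD11c+ cells 52 of the 98 rose and 15 fell, where 46.3% of all genes were called (median 0.47 beside 0.01). Of the further lipid-associated genes 18 rose and 3 fell (median 1.19). The folate receptor Folr2 rose from 27.1 ± 13.3 to 312 ± 70.8 CPM (3.53 ± 0.34, adjusted p = 8.64e-10). Its level was higher in WT SD CD206+ cells (961 ± 109 CPM), and in WT CD206+ cells it went the other way with diet (-1.01). The lysosomal protease Ctsl rose from 145 ± 39.996 to 1224 ± 141 CPM (3.07 ± 0.20, adjusted p = 3.49e-13). The transcription factor Bhlhe40 (-2.07 ± 0.26, adjusted p = 1.50e-07) and the tetraspanin Cd81 (-1.83 ± 0.16, adjusted p = 2.05e-10) fell. In WT CD206+ cells 60 rose and 5 fell, where 27.7% of all genes were called (median 0.51 beside -0.02). Mmp12 rose by 5.27 ± 0.62 (adjusted p = 1.73e-07) and Il7r by 4.24 ± 0.28 (adjusted p = 1.09e-11), and Mmp9 (-4.18 ± 0.40, adjusted p = 7.65e-09) and Siglech (-3.28 ± 0.42, adjusted p = 8.58e-07) fell.

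In KO cells edgeR called 0 of the 98 between the diets in either population. Over all genes it called 0.00743% of those tested in CD11c+ cells and 0% in CD206+ cells. At an unadjusted p under 0.05 the counts were 18 of 98 and 1221 of all genes in CD11c+ cells and 10 of 98 and 831 of all genes in CD206+ cells. DESeq2 called 3 of the 98 in CD11c+ cells, Apoe, Ctsl and Plin2, and 2 in CD206+ cells, Mmp12 and Plin2, all higher on HFD. These genes are named because the counts are small and were chosen after their values were seen.

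**Figure D5:**
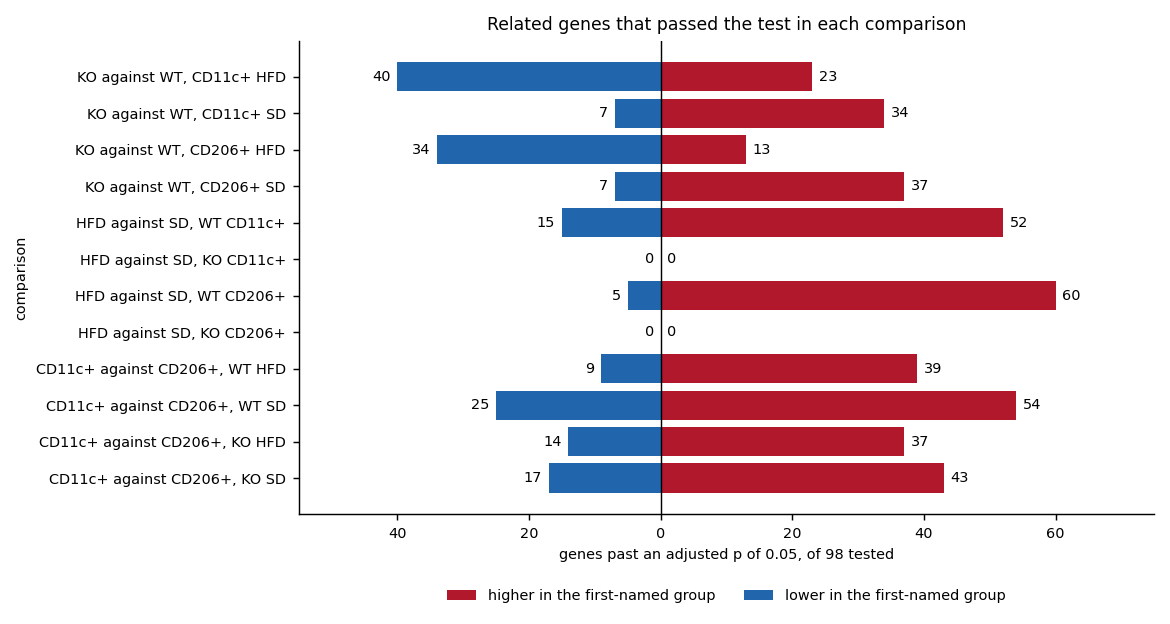
Number of related genes, of 98 tested, that passed an adjusted p of 0.05 in each of the 12 comparisons, higher to the right and lower to the left of 0. On HFD 40 were lower and 23 higher in KO CD11c+ cells, where 38.0% of all genes were called. In KO CD206+ cells 34 were lower and 13 higher, where 21.8% of all genes were called. The diets gave 0 calls in KO cells, where 0.00743% of all genes were called in CD11c+ and 0% in CD206+ cells.

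Between the populations, 39 of the 98 were higher and 9 lower in CD11c+ cells of WT HFD mice, where 20.4% of all genes were called. The counts given here come from the fit without pairing. The block of replicate numbers, which pairs the libraries of this comparison, called more than these 48 of the 98, as given at the end. It moved the calls in the TREM2 list from 2 to 4 and among transcription factors from 7 to 11. In WT SD mice 54 were higher and 25 lower, where 63.7% of all genes were called, in KO HFD mice 37 and 14, where 45.8% were, and in KO SD mice 43 and 17, where 51.7% were. In KO SD mice the paired fit moved the calls among osteopontin partners from 3 to 5. Itgax and Mmp12 led the genes higher in CD11c+ cells. Itgax encodes CD11c, on which the cells were sorted, so its place follows from the gate, and it is among the genes counted. Mmp12 stood at 2.69 ± 0.53 in WT HFD (adjusted p = 4.66e-04) and 6.16 ± 0.64 in WT SD mice (adjusted p = 2.14e-09). In KO mice Mmp12 stood at 4.60 ± 0.59 on HFD (adjusted p = 4.40e-07) and 7.28 ± 0.72 on SD (adjusted p = 2.40e-09). Lower in CD11c+ cells were Mmp9 (-1.76 ± 0.40, adjusted p = 0.00208) and the transcription factor Maf (-1.34 ± 0.13, adjusted p = 2.54e-08) in WT HFD, Siglech (-6.22 ± 0.53, adjusted p = 4.31e-11) and Folr2 (-5.15 ± 0.37, adjusted p = 1.33e-12) in WT SD mice. In KO mice these were Folr2 (-2.46 ± 0.32 on HFD, adjusted p = 5.62e-07; -3.35 ± 0.34 on SD, adjusted p = 3.14e-09) and the lipoprotein Apoe (-1.99 ± 0.20 on HFD, adjusted p = 4.86e-09; -2.53 ± 0.20 on SD, adjusted p = 5.49e-11).

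The closest relative of each member was set beside it for KO against WT on HFD in CD11c+ cells. Trem1 rose where Trem2 stood at -2.73, and Cd81 rose (1.64) where Cd9 stood at -2.63. Ctss, a cathepsin of antigen presentation, rose (0.49) where Ctsk stood at -3.85, and Hcst, an adaptor like Tyrobp, rose (0.46). The galectin Lgals1 fell (-1.22) and the carboxypeptidase Cpd fell (-1.41), the same side as Lgals3 and Cpe. Atp6v0d1, the widely expressed counterpart of Atp6v0d2, stood at 0.08, at 163 ± 5.53 CPM in WT and 172 ± 10.1 CPM in KO cells, and did not pass. Ocstamp (-0.03) and Pmel (-0.03) did not pass, and Ibsp had 0 counts in every group.

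Across the 32 libraries the members' log2 CPM were correlated, as a description over libraries that share groups and depth. Pearson's r over the 45 pairs ran from 0.02 for Tyrobp with Cpe to 0.98 for Ctsk with Atp6v0d2, with a median of 0.80. After removal of the group means the median was 0.42, from -0.24 to 0.80. For Trem2 with its adaptor Tyrobp r was 0.22. Among Gpnmb, Spp1, Cd9, Ctsk, Atp6v0d2, Trem2 and Lgals3, a set picked after these values were seen, r was at least 0.66 over 21 pairs. With the mean of the other members r was 0.57 for Tyrobp, 0.58 for Cpe and 0.67 for Dcstamp, so these 3 followed the shared pattern least. Within a group, the SD of log2 CPM was 0.84 for Spp1, 0.82 for Gpnmb and 0.77 for Ctsk, 0.37 for Trem2 and 0.15 for Tyrobp and for Lgals3.

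The genes whose pattern was most like the mean of the 10 standardised members over the 32 libraries were Cdk18 (r = 0.97), Nceh1, Pcdh7, Tmem120a, Aprt, Sort1, Sel1l3, Hadhb, Dhrs9 and Hadha (r = 0.96 to 0.95). For single members the most alike gene was Gpr137b-ps for Trem2 (0.97), Atp6v0e for Tyrobp (0.95), Rnf128 for Gpnmb (0.97), Pcdh7 for Spp1 (0.95) and Anxa1 for Lgals3 (0.98). It was Cdk18 for Cd9 (0.97), Ctsk (0.96) and Atp6v0d2 (0.98), Amz1 for Dcstamp (0.97) and Apbb2 for Cpe (0.97).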

How the data were processed

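RNA of 32 macrophage libraries in 8 groups of 4 was analysed, grouped and numbered by title. The tools named, with no roles, are TopHat2 2.1.0, SAMtools 0.1.18, Trimmomatic 0.35 and FastQC 0.11.4 on mouse build mm10 (GRCm38), per the submitters' processing notes. Read counter, annotation release and strand setting: not given in the sources used here. What the authors deposited are whole-number read counts per gene, not normalized, for 24421 genes. A further 5 rows name no gene, hold 6.63% to 12.1% of a library's reads, and were left out.

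Genes were filtered with filterByExpr (minimum count 10), scaled by TMM (factors 0.856 to 1.08) and fitted with edgeR 4.0.16 in R 4.3.3 (glmQLFit, glmQLFTest) in 1 model of 8 group means, with Benjamini-Hochberg adjustment over 13453 genes in each of 12 comparisons. DESeq2 1.42.0 was an alternative. Steps were tested on simulated data. Every pair of replicates differed by more than sampling noise. The members and gene lists were chosen with earlier results of these data known, and promoter motifs after the sequences were seen: an AP-1 motif with an open middle base was narrowed to TGACTCA after matches had been seen. Named genes were all members, per comparison up to 2 higher and 2 lower listed genes with the largest change among those called with at least 10 CPM in the higher group, each member's closest relative, and the genes most like the members. Gene positions and exon lengths come from GENCODE M21, promoters from RefSeq.

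Same-numbered CD11c+ and CD206+ libraries deviated together in WT HFD (r 0.23 to 0.47), WT SD (0.14 to 0.28) and KO SD mice (0.14 to 0.32), so the numbers pair these samples. In KO HFD mice they did so only in part (r -0.05 to 0.33, median 0.08), so these samples were not taken as pairs. Neither were same-numbered libraries of different genotypes or diets.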

Additional observations from a re-analysis of the deposited data

Results flagged for a closer look

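Of 80 sets of 4 libraries, 1 for each member and group, 3 held a library far from the other three; chance gives about 1 in 20. Tyrobp was 726 CPM in WT HFD CD11c+ replicate 4, where the others held 814 to 826 CPM. Gpnmb was 63.5 CPM in KO HFD CD206+ replicate 2, where the others held 8.35 to 11.9 CPM. Lgals3 was 1676 CPM in KO HFD CD11c+ replicate 1, where the others held 1985 to 2041 CPM.

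Some genes had all 4 libraries on one side in 1 comparison and on the opposite side in its counterpart; the difference was not tested. For Dcstamp the diet effect in WT mice differed by -2.46 between CD11c+ (-1.20) and CD206+ cells (1.26). For Folr2 it differed by 4.54 (3.53 and -1.01). Folr2 also differed by -2.54 between the genotype effects on HFD (-1.12) and SD (1.42) in CD11c+ cells, and by -1.85 between those in CD11c+ and CD206+ cells on HFD (-1.12 and 0.73). The genotype effect in CD11c+ cells differed between the diets by 1.70 for Bhlhe40 (1.03 on HFD and -0.67 on SD) and by -2.19 for Ctsl (-1.39 and 0.80). The difference of CD11c+ from CD206+ cells in WT mice differed between the diets by 1.80 for Ctsl (0.75 on HFD and -1.05 on SD), by -1.61 for Fosl2 (-0.38 and 1.24) and by 1.93 for Src (0.78 and -1.14).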

How the results depend on the processing

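Fold changes of the members changed sign in 38 of 1600 values with a library left out and in 1 of 160 each without TMM factors and with the replicate block (Trem2, KO against WT, CD11c+ SD, 0.05 and 0.00). The largest value to change sign was Spp1, KO against WT, CD11c+ SD, from 0.50 to -0.06 without KO SD CD11c+ replicate 2. The 40 tested values of named listed genes kept direction and call under the alternatives run. Related genes called between the diets in KO cells numbered 0 by edgeR and 3 (CD11c+) and 2 (CD206+) by DESeq2. Leaving out a library gave 0 to 3 in CD11c+ and 0 to 1 in CD206+ cells, and 0 to 3 and 0 to 2 members without overlap; the counts of 3 came without KO HFD CD11c+ replicate 1. Leaving out KO HFD CD206+ replicate 2 moved Gpnmb from -4.78 to -6.01 (KO against WT), from 1.30 to 0.09 (diet) and from 3.43 to 4.66 (population). Leaving out KO SD CD206+ replicate 4 moved Spp1 from 2.45 to 3.08 for the populations in KO SD. Leaving out KO SD CD11c+ replicate 2 moved Ctsk from 2.17 to 1.57 for the populations in KO SD. Without TMM factors Tyrobp and Lgals3 moved to 0.72 and 1.64 (CD11c+ against CD206+, WT SD), where the median of all genes shifted by -0.18; it shifted by 0.12 for the diets in WT CD11c+ cells. With the replicate block the related genes called in WT HFD populations numbered 64 against 48; between groups whose numbers do not pair, it moved osteopontin partners from 1 to 2 (KO against WT, CD11c+ SD) and relatives of the members from 3 to 5 (populations, KO HFD). It changed no count over all 98 genes by more than 1.5 times. The cause of these shifts was not tested. Depth limits Dcstamp in KO CD206+ cells, at 3 to 20 reads in a library.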
